A study of Mus musculus with 6 samples.

Results

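Left and right hippocampus were compared within dose group, on pools of RNA from male DBA/2 mice that drank water with or without the antidepressant venlafaxine. The groups took 0 (control), 30 (low dose) or 100 (high dose) mg per kg per day for 30 days, with 10 animals in each. Every dose group gave 1 left and 1 right pool, and 1 array (Affymetrix Mouse Genome 430 2.0) was run for each of them. All 6 arrays of the series therefore enter the comparison, 3 from left and 3 from right pools. The labels do not say whether a left and a right pool came from the same brains, and a pool carries no spread between animals. A p-value here therefore reflects differences among pools and arrays, not among mice.

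Both low dose arrays were hybridized on the first date. In the control pair the left pool was run on the later date, and in the high dose pair the right pool was. Only the low dose pair compares the sides within 1 date. Within the control pair alone, or the high dose pair alone, side and date cannot be told apart. The RNA integrity number (RIN, a score of RNA quality) was 7.9 for the control left and 8.7 for the control right pool, 8.9 for the low dose left and 9.1 for the low dose right pool, and 8.5 for the high dose left and 8.2 for the high dose right pool.

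The hippocampus is a paired structure that serves memory and spatial navigation. Known differences between its sides in the mouse concern synapses more than cell types: the synapses that CA3 axons form on CA1 neurons carry different amounts of the NMDA receptor subunit GluN2B (gene Grin2b) depending on the side the axon comes from, and this asymmetry needs the MHC class I light chain β2-microglobulin (B2m). Body asymmetry in the embryo is set by cilia of the node and by Nodal and Lefty signals. The dissected hippocampus lies near striatum, neocortex, thalamus and the choroid plexus of the ventricles, so markers of these tissues were read beside the hippocampal genes. In pooled tissue, fewer cells of a type and less RNA per cell cannot be told apart.

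The pools carried hippocampal markers: of the genes listed for each cell type, 10 of 11 dentate granule cell, 6 of 8 CA1 and 12 of 13 CA3 and CA2 pyramidal genes exceeded the array median in 2 or more of the 6 arrays. So did 11 of 12 neocortical, 11 of 12 thalamic and habenular and 16 of 19 choroid plexus genes, so this level does not single out hippocampal tissue. That level was the condition for testing a gene, and 11739 of 18193 named genes met it. Values are log2 expression, and a difference is left minus right within a dose group, so that a positive value means a higher level on the left.

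Left and right pools of 1 dose group and 1 date were more alike than any other pair of arrays. Over the tested genes the SD of the difference was 0.093 in the low dose pair. Arrays of the same side and date but of another dose differed with SDs of 0.099 and 0.109. Where the date differed, the SD was 0.162 in the control pair and 0.148 in the high dose pair. Pools of the same side but of another dose and date differed with SDs of 0.152 to 0.177, so the date went with a larger spread than the side did.

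The side differences of the control and high dose pairs ran against each other, as the plot of gene differences in pairs of dose groups shows. Across 11739 genes the Pearson correlation of left minus right was -0.54 (Spearman -0.50) between the control and the high dose pair, whose left pools lay on opposite dates. The low dose pair correlated at 0.077 with the control pair and at -0.13 with the high dose pair. Genes are not independent replicates, and the 3 differences come from 6 separate arrays.

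**Figure D1:**
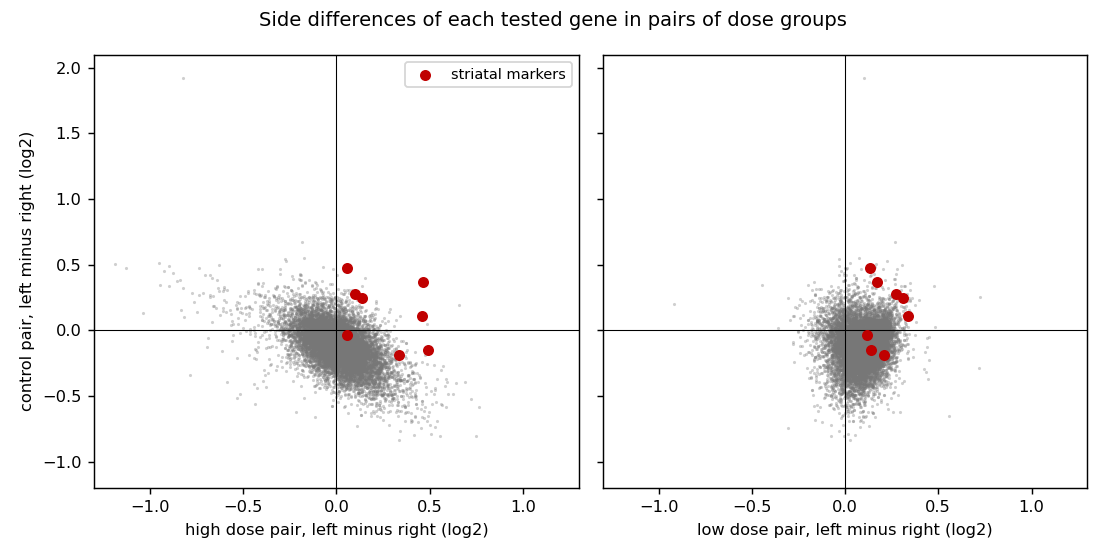
Left minus right (log2) of each of 11739 tested genes (grey) in the control pair against the high dose pair (left panel) and the low dose pair (right panel), with 8 striatal markers in red. The grey cloud slopes downward in the left panel, where the Pearson correlation is -0.54, and is narrow along the low dose axis, where the SD is 0.093.

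Single genes showed the same opposition. In the control pair 170 genes differed by at least 0.5 log2, in the high dose pair 102 did, and 17 did in both, or 10% of the first list and 16.7% of the second. Of these 17 genes, 16 had opposite directions by side, 3 being higher and 13 lower on the later date, and their largest difference in the low dose pair was 0.165. The genes given next were chosen after their values were seen. Mlf2, a gene expressed in many tissues, had levels of 9.58, 10.60 and 10.29 in the control, low and high dose left pools and of 10.38, 10.68 and 9.54 in the right pools. Its lowest 2 levels are the arrays of the later date, and its 3 differences were -0.81, -0.08 and 0.75. Cplx2, a complexin that regulates synaptic vesicle release, had the reverse pattern with differences of 0.51, 0.17 and -1.19. On the later date the Actb probe sets at the 3′ end of the transcript exceeded those at the 5′ end by 1.50 (control left) and 1.38 (high dose right) log2, against 1.05 to 1.19 on the other arrays. The part of RNA quality in these differences was not tested.

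The whole distribution also shifted from pair to pair. The median left minus right was -0.11 in the control pair, 0.094 in the low dose pair and 0.0042 in the high dose pair, and 21.6%, 83.8% and 51.5% of genes were higher on the left. After quantile normalization, which forces equal distributions, the medians were -0.0070, 0.0029 and 0.014. Positive values in the low dose pair and negative values in the control pair are therefore common to most genes, and gene groups are given below beside these medians.

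No gene passed the test for a side difference. With limma on all 6 arrays and dose group as a term, 0 of 11739 genes (0%) had a Benjamini-Hochberg adjusted p under 0.05, and 40 had an unadjusted p under 0.05, where 587 would be expected by number alone. The smallest unadjusted limma p was 0.000184. All genes shared 1 estimate of the spread in this fit, so the standard error of every mean difference was 0.107 and p ranks genes by size alone. In simulated data of this layout the fit recovered 25.7% of differences of 0.5 log2 and 83.4% of those of 1 log2. The simulation gave each gene a spread of its own, unlike the shared spread of the real fit. It therefore does not settle which differences in a single gene this fit would have missed. Exchanging the sides within 3 pairs cannot give a two-sided exact permutation p below 0.25 for any gene.

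Some other fits called genes, and these genes were chosen by those calls. With RIN as a covariate limma called 17 genes, all higher on the right by the fitted coefficient. Among them were the adhesion receptor gene Adgra1 (-0.57, adjusted p = 7.74e-05), the splicing factor gene Srrm2 (-0.55, adjusted p = 0.000133) and Cplx2 (-0.52, adjusted p = 0.000457). Of the 17, only Ppp2r5e (-0.13) was not higher on the left in the control pair. The control, low and high dose differences were 0.48, 0.002 and -1.13 for Srrm2 and 0.51, 0.17 and -1.19 for Cplx2. Another limma fit used only the 4 arrays of the first date, with side as the single term. Its right pools were control and low dose and its left pools low and high dose, so side and dose are not separated. As higher on the left it called Fmod (0.51, adjusted p = 0.00266) and A330076H08Rik (0.47, adjusted p = 0.0135). As higher on the right it called Adgra1 (-0.43, adjusted p = 0.048) and 9530059O14Rik (-0.43, adjusted p = 0.048). Without the control pair limma called Avp (-0.56, adjusted p = 0.0273) and Adgra1 (-0.56, adjusted p = 0.0355), and without the high dose pair A330076H08Rik (1.01, adjusted p = 2.23e-09). In the fit of all 6 arrays the differences of Adgra1, Fmod and A330076H08Rik were -0.33, 0.20 and 0.40, and none of these 3 genes had 1 direction in all 3 pairs. Adgra1 measured 10.27, 9.49 and 9.37 in the control, low and high dose left pools and 10.13, 9.58 and 10.40 in the right pools, so its high dose right pool stands far above its left partner and its other pairs lie close together.

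Genes with 1 direction in all 3 pairs were few. Left was higher in all 3 for 456 genes (3.88%) and right for 436 (3.71%); after quantile normalization the numbers were 1130 and 916. For 145 genes (1.24%) every left pool lay above every right pool, and for 97 (0.826%) every right pool lay above every left pool.

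Markers of striatal projection neurons were mostly higher on the left, though none passed the test. These GABAergic neurons of the caudate and putamen are known for their dopamine receptors and neuropeptides. Of 12 listed markers 8 were tested; Drd2 and Syndig1l lay below the level for testing, and Adora2a had no probe set of its own. All 8 had a mean difference above 0, as did 5388 of all 11739 tested genes. Of the 8, 5 were higher on the left in all 3 pairs (Penk, Tac1, Drd1, Rgs9 and Gpr6), as were 3.88% of all tested genes. These 5 and Rasd2 lay above the all-gene median in all 3, where 7.46% of all tested genes did. The median of the list was 0.22 for the mean difference, against -0.006 over all tested genes, and 0.18, 0.19 and 0.24 in the control, low and high dose pair. Less the all-gene medians the values of the 3 pairs were 0.29, 0.095 and 0.23. In the low dose pair lists such as the meningeal (0.161), ependymal (0.112) and chaperone (0.105) genes lay farther above the all-gene median. None of the 8 passed the limma test, and with the probe sets of a gene averaged the median of the list was 0.12.

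Penk encodes the precursor of the enkephalin opioid peptides. Its levels were 11.68, 11.49 and 11.34 in the control, low and high dose left pools and 11.31, 11.32 and 10.87 in the right pools. Every left pool lay above every right pool, although the lowest left and the highest right value are close together. The left mean was 11.50 ± 0.17 (SD, n = 3) and the right mean 11.17 ± 0.26 (SD, n = 3), a difference of 0.33 with an unadjusted limma p of 0.00179 (adjusted p = 1.0). In the low dose pair its difference of 0.17 lay 0.075 above the all-gene median and was 0.040 after quantile normalization.

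Tac1, the precursor of substance P, measured 11.05, 11.00 and 10.62 on the left and 10.81, 10.69 and 10.49 on the right in the same order of doses. The left pool was the higher in each pair, but the high dose left pool lay below 2 right pools, so the sides overlapped. The mean difference was 0.23, and another probe set of Tac1 gave -0.04. Gpr6, an orphan receptor of striatal neurons of the indirect pathway, measured 8.27, 8.15 and 8.02 on the left and 8.16, 7.81 and 7.56 on the right, with differences of 0.11, 0.34 and 0.46. Drd1, the dopamine D1 receptor, measured 9.91, 9.40 and 9.38 on the left and 9.43, 9.26 and 9.32 on the right. Its control left pool stands apart from the other 5, and the differences were 0.48, 0.14 and 0.056.

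Rgs9, a regulator of G protein signalling, had differences of 0.28, 0.27 and 0.098. The other 3 tested markers were higher on the right in the control pair and higher on the left in both dosed pairs. The dopamine signalling protein gene Ppp1r1b (DARPP-32) gave -0.19, 0.21 and 0.34, the phosphodiesterase gene Pde10a -0.15, 0.14 and 0.49, and the small GTPase gene Rasd2 -0.04, 0.12 and 0.06. On the first-date arrays alone, where side and dose are not separated, these 3 genes had differences of -0.013, -0.012 and -0.029. Over the 8 genes the mean level was 9.96 against 9.82 in the control pair, 9.91 against 9.69 in the low dose pair and 9.70 against 9.44 in the high dose pair, left first.

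**Figure D2:**
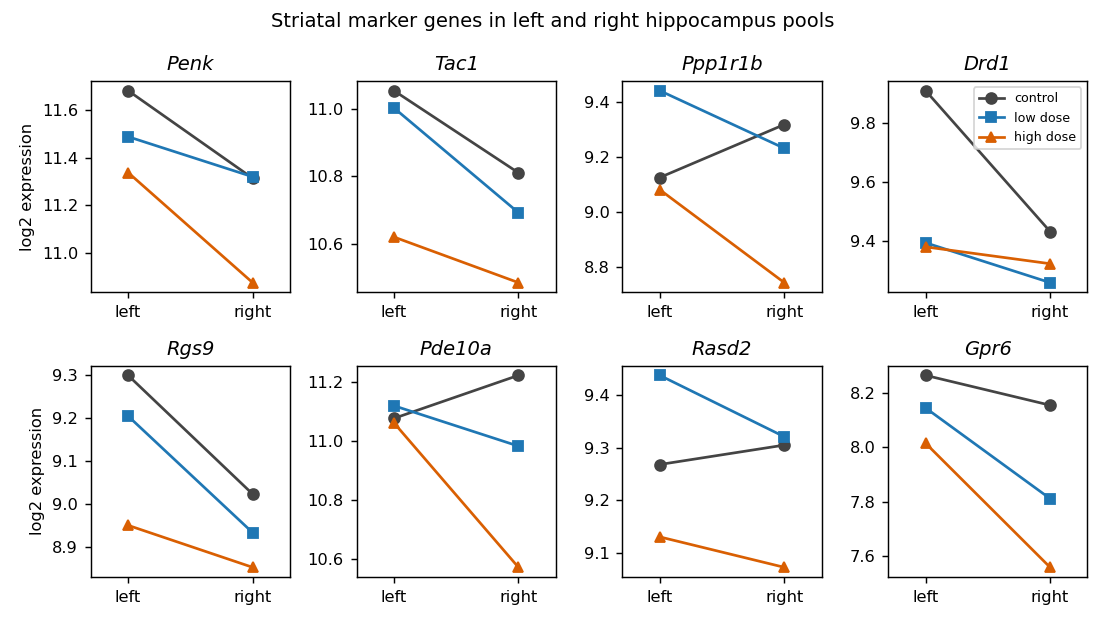
Log2 expression of the 8 tested striatal markers in left and right pools, with 1 line per dose group joining the pools of a pair; each point is 1 array and each panel has its own axis, which does not start at 0. Of the 8 genes, 5 are lower on the right in all 3 dose groups, and Ppp1r1b, Pde10a and Rasd2 do so in 2 of them.

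The 12 genes with the steadiest left-higher values, ranked by the smallest of their 3 differences, include 3 of the listed striatal markers, Penk, Tac1 and Gpr6. The choice fixes their direction, so their values are a description. Scn4b, a sodium channel β subunit that is not on the striatal list, measured 9.52, 9.61 and 9.13 on the left and 9.18, 9.13 and 8.99 on the right, and its differences of 0.34, 0.48 and 0.14 gave a mean of 0.32. Arpp19, a phosphoprotein regulated by cyclic AMP, had a mean difference of 0.24, and Ngef, a guanine nucleotide exchange factor, 0.25. Their control, low and high dose differences were 0.23, 0.35 and 0.14 for Arpp19 and 0.23, 0.40 and 0.11 for Ngef. Less the all-gene median of each pair, these were 0.34, 0.25 and 0.14 for Arpp19 and 0.34, 0.30 and 0.11 for Ngef, so the low dose value was then not the largest.

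The homeodomain factor gene Meis2 (0.19), the Cdc42 effector gene Cdc42ep3 (0.19), the kinase gene Stk32c (0.21), the ectonucleotidase gene Nt5e (0.16), the hedgehog-binding protein gene Hhip (0.15) and the zinc finger gene Zfp94 (0.13) complete the 12. The sides did not overlap for Penk, Nt5e, Zfp94, Hhip and Stk32c. Nt5e measured 7.91, 8.01 and 7.94 on the left and 7.73, 7.83 and 7.81 on the right, a small gap that recurs at each dose. After quantile normalization all 12 were still higher on the left in all 3 pairs.

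The 12 steadiest right-higher genes were led by Mettl27. Mettl27, a methyltransferase-like gene, measured 8.05, 8.14 and 8.19 on the left and 8.23, 8.31 and 8.44 on the right, so every right pool lay above every left pool, with differences of -0.19, -0.18 and -0.26. The sides were also apart for the uroplakin gene Upk2 (mean -0.22), Igdcc3 (-0.17), the semaphorin receptor gene Plxna4 (-0.13), Mfsd9 (-0.13) and P3h2, a collagen prolyl hydroxylase gene (-0.16). Plxna4 measured 8.82, 8.71 and 8.77 on the left and 8.97, 8.83 and 8.91 on the right.

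Sides overlapped for the other 6. Of these the MAP kinase phosphatase gene Dusp5 had a mean of -0.21, the RNA-binding protein gene Elavl1 -0.21, the histone demethylase gene Kdm6b -0.14, Banp -0.14, Cldnd1 -0.29 and 9530059O14Rik -0.24. Cldnd1 rests on the high dose pair, with -0.16, -0.10 and -0.62. After quantile normalization 10 of the 12 kept their direction in all 3 pairs, while Kdm6b (0.032) and 9530059O14Rik (0.014) turned in the control pair. Other probe sets of Tac1, Meis2, Nt5e, Hhip, Igdcc3, Kdm6b, Cldnd1 and Elavl1 gave a mean of opposite sign.

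**Figure D3:**
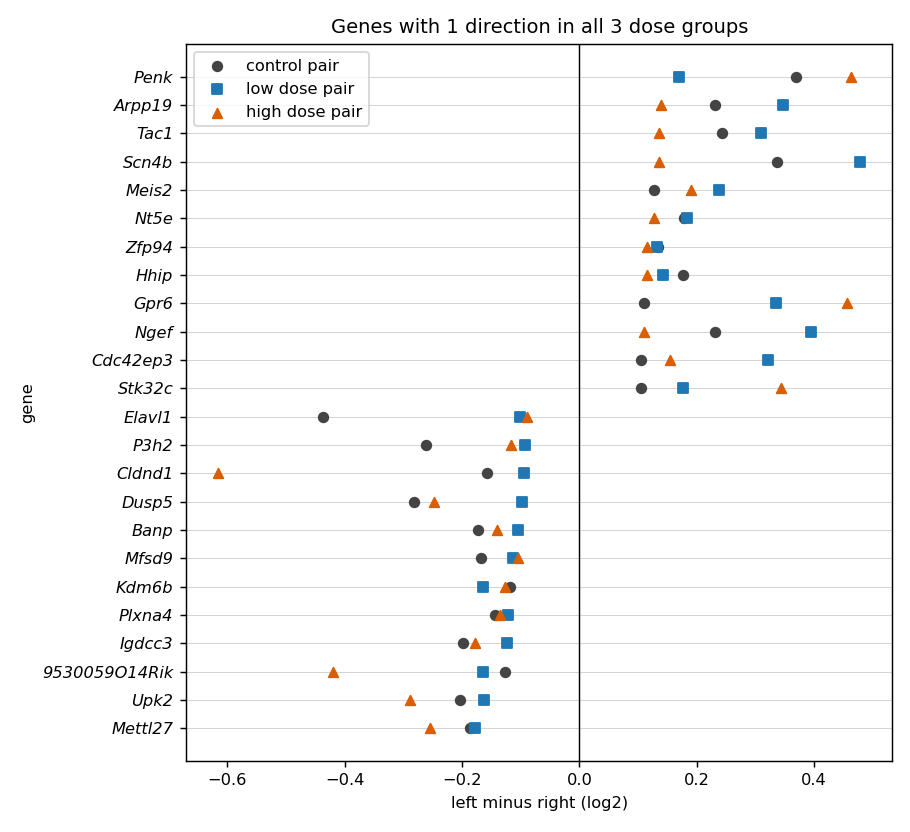
Left minus right (log2) in the control, low dose and high dose pair for the 12 left-higher and 12 right-higher genes whose 3 differences share a direction and whose smallest difference is largest. Each point is 1 pair of arrays; Penk and Gpr6 reach 0.46 in the high dose pair, and Cldnd1 and Elavl1 reach -0.62 and -0.44.

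The low dose pair, free of a date difference, had few large differences. At least 0.5 log2 higher on the left were 3 genes (0.0256%), Ccn2, Fmod and Ptgds, and on the right 1 gene (0.00852%), Avp. Fmod reached this difference on 1 of its 6 probe sets, while the other 5 gave 0.14 to 0.43, and with probe sets averaged it was 0.33 and the left-higher count 2. The control pair had 7 genes (0.0596%) higher on the left and 163 (1.39%) on the right, or 33 and 35 after quantile normalization. The high dose pair had 29 (0.247%) and 73 (0.622%). With 1 array a side these values have no replicate check.

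Ccn2 encodes a matrix-associated growth factor that also marks the deepest cortical layer. It measured 10.59, 10.21 and 10.15 in the control, low and high dose left pools and 10.33, 9.48 and 10.20 in the right pools. The low dose right pool was its lowest, and the differences were 0.26, 0.73 and -0.05. Fmod (fibromodulin, a collagen-binding protein) measured 8.73, 9.37 and 9.32 on the left and 9.02, 8.65 and 9.15 on the right. Ptgds, the prostaglandin D synthase of meninges and choroid plexus, measured 13.14, 14.00 and 13.82 on the left and 13.79, 13.45 and 13.49 on the right. Fmod and Ptgds were higher on the left in both dosed pairs and higher on the right in the control pair. Scn4b (0.48), the interferon-induced gene Ifit3 (0.48) and the ribosomal protein gene Rps4l (0.45) followed; Ifit3 had 0.03 and 0.00 in the control and high dose pairs.

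Avp, the precursor of vasopressin, measured 8.00, 8.40 and 8.01 on the left and 7.80, 9.32 and 8.21 on the right. The low dose right pool stands above the other 5 arrays, and the differences were 0.20, -0.92 and -0.19. Vasopressin is made mainly in the hypothalamus, and the tested hormone genes as a list had a median mean difference of -0.059 (7 genes). Of the other right-higher genes in the low dose pair, Tnnt1, a troponin gene, had 0.34, -0.45 and -0.19 and Prkcd, a protein kinase C gene abundant in thalamus, 0.02, -0.36 and 0.18. C030023E24Rik (-0.31), Synpo2 (-0.31) and 4930573C08Rik (-0.30) complete the 6, and among these 6 only C030023E24Rik shared its direction with the control pair, at -0.75. Tnnt1, Prkcd, Synpo2 and 4930573C08Rik were higher on the left in the control pair.

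Choroid plexus markers had the list median farthest from 0 within a pair, and the sign of that median differed between dose groups. The choroid plexus is the epithelium that secretes cerebrospinal fluid and lies against the hippocampus. Of 19 listed genes 16 were tested, and 15 were higher on the right in the control pair (median -0.29), 15 on the left in the low dose pair (median 0.18) and 16 on the right in the high dose pair (median -0.44). Over all tested genes 21.6%, 83.8% and 51.5% were higher on the left in these pairs, so the low dose count is near the share of all genes. Less the all-gene medians the list medians were -0.18, 0.082 and -0.44. The mean difference was below 0 for all 16 (median -0.17), as it was for 6351 of all 11739 tested genes. Of the 16, 1 gene, Ace, was higher on the right in all 3 pairs against a background of 3.71%. Below the all-gene median in all 3 pairs lay 1 of 16, Slc13a4, against 8.14% of all tested genes.

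Kcnj13, a potassium channel of this epithelium, measured 9.70, 10.23 and 9.61 in the control, low and high dose left pools and 10.04, 10.01 and 10.40 in the right pools. The highest level was the high dose right pool and the next the low dose left pool, and the differences were -0.34, 0.22 and -0.79. The potassium channel subunit gene Kcne2 (-0.48, 0.15 and -0.52), the anti-ageing gene Kl (-0.56, 0.22 and -0.44) and Calml4 (-0.39, 0.23 and -0.59) had the same order of signs; another probe set of Kl gave a mean of 0.01. Ttr encodes transthyretin, the main secreted protein of the choroid plexus, and measured 15.09, 15.17 and 14.82 on the left and 14.92, 14.92 and 15.31 on the right. Its differences were 0.17, 0.25 and -0.49, and after quantile normalization -0.07, -0.02 and -0.09. In the high dose right pool Ttr was the highest value on the array, and on the other arrays it lay near the highest. Quantile normalization gives the top ranks of all arrays nearly the same values. Small differences of Ttr after it are therefore largely forced and do not show whether the sides differ. Over the 16 genes the mean level ran from 9.07 in the control left to 9.61 in the high dose right pool, both arrays of the later date.

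**Figure D4:**
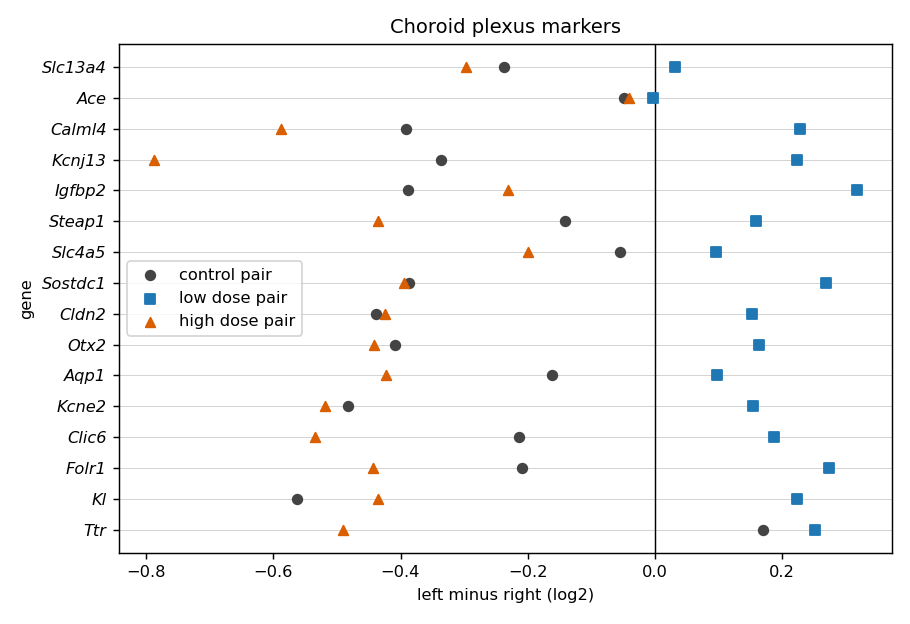
Left minus right (log2) of the 16 tested choroid plexus markers in the control, low dose and high dose pair; each point is 1 pair of arrays. Low dose points lie mostly right of 0 (median 0.18), control and high dose points mostly left of it (medians -0.29 and -0.44).

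Markers of the other neighbouring tissues had small means. Meningeal and fibroblast genes (11 tested) were higher on the left in all 11 cases in the low dose pair (median 0.26, or 0.16 less the all-gene median), where 83.8% of all tested genes were, and the median was -0.21 in the control and 0.001 in the high dose pair. Neocortical genes (11 tested) had medians of -0.06, 0.19 and -0.01. Of these, the complexin gene Cplx3 had 0.44 in the low dose pair and -0.06 and 0.10 in the others, and Fezf2, a factor of deep-layer neurons, -0.26, 0.05 and -0.35. Thalamic and habenular genes (11 tested) had a median mean difference of -0.020. The part of these tissues in the differences of other genes was not tested.

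Genes that set body asymmetry in the embryo had small differences. Of 21 listed genes 9 were tested, and Nodal, Lefty2 and Cfc1 lay below the level for testing. Of the 9, Dand5 was higher on the left and Lefty1 on the right in all 3 pairs (3.88% and 3.71% of all tested genes), and the median mean difference was -0.050. Dand5, a secreted antagonist of Nodal, measured 8.17, 8.31 and 8.12 on the left and 8.12, 8.08 and 7.96 on the right, so its left pools lay above all right pools by a narrow margin. Lefty1, another inhibitor of Nodal, had differences of -0.11, -0.09 and -0.02, and after quantile normalization its control difference was 0.02. The ciliary genes Dnah11 (0.01, -0.01 and -0.10) and Invs (-0.09, 0.03 and -0.18), whose mutations reverse or randomise body asymmetry, differed in sign between pairs.

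Glutamate receptor subunits had small mean differences. Of 11 listed AMPA and NMDA receptor genes 8 were tested, and none had 1 direction in all 3 pairs, which is near the shares of 3.88% (left) and 3.71% (right) among all tested genes. Grin2b measured 11.24, 11.45 and 11.57 in the control, low and high dose left pools and 11.56, 11.49 and 11.43 in the right pools. The left pool was the lower in the control and low dose pairs and the higher in the high dose pair, with differences of -0.32, -0.03 and 0.15 and a mean of -0.07, less than the standard error of 0.107. Gria1, the GluA1 subunit of AMPA receptors, had -0.34, 0.09 and -0.00. Gria3, chosen here for the widest range in the list, had -0.53, 0.05 and 0.43.

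MHC class I genes had small mean differences as well. Of 14 listed genes 8 were tested, and none had 1 direction in all 3 pairs, again near the shares of all genes. All 8 were higher on the right in the control pair, where 21.6% of all tested genes were higher on the left. Pirb, a receptor for MHC class I at synapses, lay below the level for testing. B2m measured 11.03, 11.34 and 11.31 on the left and 11.44, 11.35 and 11.20 on the right, with differences of -0.41, -0.01 and 0.12. The heavy chain gene H2-K1 had -0.36, -0.02 and 0.17. In the low dose pair Grin2b, B2m and H2-K1 had differences of -0.03, -0.01 and -0.02 as deposited. Less the all-gene median of that pair these were -0.13, -0.11 and -0.11, and after quantile normalization -0.16, -0.14 and -0.11. The SD over all genes in that pair was 0.093 as deposited and 0.080 after quantile normalization.

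Markers of hippocampal subfields had list medians near 0 for the mean of the 3 pairs. The median mean difference was -0.039 for CA1 (6 genes), -0.007 for CA3 and CA2 (12 genes), -0.045 for dentate granule cells (10 genes), 0.041 for dorsal (4 genes) and 0.004 for ventral hippocampus (8 genes). Single pairs differed more. Less the all-gene medians, the control, low and high dose values were -0.186, -0.042 and 0.006 for CA1. They were -0.065, 0.005 and 0.069 for CA3 and CA2, and -0.095, 0.028 and -0.062 for dentate granule cells. Pcp4, a calmodulin-binding protein gene strong in CA2, measured 13.07, 13.08 and 12.90 on the left and 12.84, 12.75 and 12.88 on the right, so all left pools lay above all right pools. Its high dose pools differed by only 0.02. Prox1, the factor that specifies granule cells, had differences of -0.15, 0.02 and -0.43, and Dsp (desmoplakin, a granule cell marker) -0.52, 0.14 and -0.17.

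Glial, activity and monoamine lists had means near 0. Oligodendrocyte genes (13 tested) had medians of -0.18, 0.089 and 0.20 in the control, low and high dose pair. By these medians the pool of the later date was the lower in both pairs that span the dates. Mobp, a myelin protein gene, had 0.00, 0.17 and 0.27. Immediate early genes, which neurons induce on activity (22 tested), had a median mean difference of 0.030; the activity-dependent factor gene Npas4 had 0.05, 0.32 and 0.16, and Egr2, chiefly through the control left pool at 9.06 against 8.64 on the right, 0.42, -0.04 and 0.00.

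Serotonin receptor genes (8 tested), the targets of the transmitter whose reuptake venlafaxine blocks, had a median of -0.028, and the receptor gene Htr1a had -0.25, 0.04 and -0.21. The 5 tested genes of monoamine transport, synthesis and breakdown had a median of 0.038, with 0.06, 0.02 and 0.02 in the 3 pairs. In all, 270 of 343 listed genes in 28 lists were tested, and none had an adjusted p under 0.05. Of 26 lists with at least 5 tested genes, only the striatal and the monoamine list had medians of 1 direction in all 3 pairs as deposited. Less the all-gene medians the monoamine list had 0.17, -0.07 and 0.02 and so did not keep 1 direction. The immediate early list then had 0.002, 0.024 and 0.006. Apart from the striatal and choroid plexus lists, the median mean differences lay between -0.059 and 0.049.

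**Figure D5:**
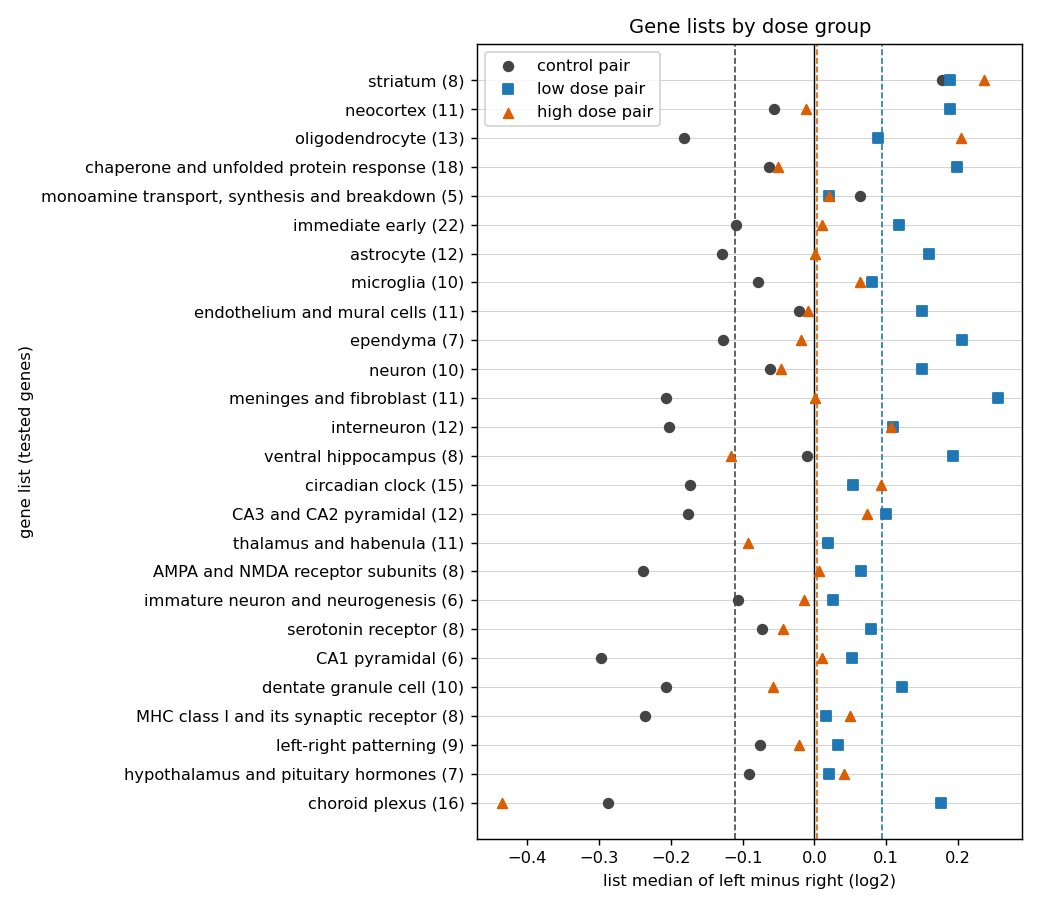
Median left minus right (log2) of each of 26 gene lists in the control, low dose and high dose pair, with the number of tested genes in brackets; dashed lines mark the median over all 11739 genes in each pair (-0.11, 0.094 and 0.0042). The striatal list lies at 0.18, 0.19 and 0.24, right of the dashed lines in all 3 pairs, and most other lists lie near the dashed lines.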

How the data were processed

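Per the submitters' processing notes the authors processed the arrays with RMA in R 3.0.1, with no settings given in the sources used here. That the deposited values are log2 was read from their range. Per the labels' protocols 100 ng of total RNA was labelled for each array. Of 45101 probe sets, 64 controls were set aside, 34945 had 1 gene symbol, 932 several and 9160 none; symbols came from the platform annotation and were updated through RefSeq Entrez identifiers for 34741. The probe set with the highest mean stood for a gene (9010 of 18193 genes had more than 1), and 11739 genes above the array median on at least 2 arrays were tested.

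Left minus right was fitted in R 4.3.3 with the functions lmFit and eBayes of limma 3.58.1 (dose group as a term, two-sided, Benjamini-Hochberg adjustment, threshold 0.05). The fit was tested on simulated data with 200 changed genes in 10 runs, which gave 110.7 calls on average, 1.6 of them false. Within a dose group the arrays were subtracted, and a difference counted as large from 0.5 log2. Dose group pairs the arrays by design: each holds 1 left and 1 right pool. The number in the labels does not follow the side.

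Named genes are up to 12 in each direction with an adjusted p under 0.05 (none), up to 12 in each direction with 1 sign in all 3 pairs, ranked by the smallest difference, the 6 in each direction with the largest difference in the low dose pair, the 4 or fewer genes of every list with the widest mean difference, and members of the asymmetry, glutamate receptor and MHC lists. Others were chosen after their values were seen, as were Ppp1r1b, Pde10a, Rasd2 and Ttr. The comparison, members and lists were chosen with earlier results of these data known. Alternatives were no dose group term, date, RIN, first-date arrays with side alone, limma's trend and robust settings, other filters, probe set means, other scalings and leaving out 1 pair. No 2 arrays held identical values. Scanner files were not used here, and 1 listed striatal marker is not reported here.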

Additional observations from a re-analysis of the deposited data

Results flagged for a closer look

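The following genes had side differences of opposite sign between dose groups that spanned more than 1 log2. The difference between dose groups was not tested, since each rests on 1 array a side. Values are left minus right in the control, low dose and high dose pair.

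Kcnj13, the choroid plexus potassium channel, had -0.337, 0.223 and -0.787. Ptgds, the prostaglandin D synthase of meninges and choroid plexus, had -0.653, 0.557 and 0.328, and Fmod, the collagen-binding fibromodulin, -0.29, 0.717 and 0.168. Avp, the vasopressin precursor, had 0.201, -0.918 and -0.194. Adgra1, an adhesion receptor gene, had 0.135, -0.089 and -1.037. A330076H08Rik had 1.92, 0.10 and -0.821, higher on the later date in both pairs that span the dates, and C030023E24Rik had -0.745, -0.307 and 0.456.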

How the results depend on the processing

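The design allows no more than 3 pairs, and the simulation does not settle how small a difference in a single gene the fit resolves. Brightness of the array sets no other limit that was measured. The number of genes with an adjusted p under 0.05 in limma was 0 with the dose group pairs and 0 without this replicate block (20 genes with an unadjusted p under 0.05), 17 with RIN and 4 on the first-date arrays, and 0 to 2 when 1 pair was left out. It was 0 with date as a term (88 with an unadjusted p under 0.05), with limma's trend and robust settings (52), without a filter (52), with the stricter filter (36), with probe set means (24), after median centring (35) and after quantile normalization (79).

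Genes higher on the left in all 3 pairs numbered 1170 without a filter and 1130 after quantile normalization, and on the right 864 and 916. Past 0.5 log2, the control pair had 33 left-higher and 35 right-higher genes after quantile normalization and 2 and 70 with probe set means. The high dose pair had 8 and 30 with probe set means. At 1 log2 the counts, left then right, were 1 and 0 in the control, 0 and 0 in the low dose and 0 and 3 in the high dose pair. The striatal median was 0.118 with probe set means. The cause was not tested.

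Of 730 values of 57 named genes, 20 reversed. On the first-date arrays, where side and dose are not separated, these were Ppp1r1b (-0.013), Pde10a (-0.012), Rasd2 (-0.029), Ttr (0.075), Gria1 (0.003), Dnah11 (0.008) and Egr2 (-0.332). With RIN they were Grin2b (0.030), B2m (0.010) and H2-K1 (0.045). Leaving out 1 pair, with the value that reversed given first, the range was 0.056 to -0.176 for Grin2b, 0.043 to -0.171 for Gria1, 0.051 to -0.213 for B2m, 0.078 to -0.187 for H2-K1 and -0.016 to 0.211 for Egr2 (reversed without the control pair). It was -0.005 to 0.314 for Pde10a, 0.210 to -0.16 for Ttr and 0.000 to -0.054 for Dnah11 (without the high dose pair), and 0.004 to -0.556 for Avp and -0.038 to 0.299 for Calb2 (without the low dose pair). All 306 values of the 24 genes with 1 direction kept it, which leaving out a pair cannot change by construction. Several other fits could not reverse any named gene either, since they give the same left minus right by construction. These are the fits without the dose group term, with date, with limma's trend and robust settings and with other filters.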
